A study of Mus musculus with 4 samples.

Results

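The SLAM family is a set of immune cell surface receptors whose genes lie close together on mouse chromosome 1. The genes examined were Slamf1, Slamf6, Slamf7, Slamf8, Slamf9, Cd48, Cd84, Ly9 and the adaptor gene Sh2d1b1, 9 of the 32285 genes in the table, and each was found by its symbol. The set was chosen by earlier results of these same sections, in which several of these genes had higher UMI levels in tumors of the CC075F1 strain. The difference between strains is therefore given below as a description, and the tests concern where within a section the genes were detected.

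The samples were 4 fresh-frozen MC38 tumor sections profiled by spot-based spatial RNA sequencing (Visium), 2 from CC075F1 hosts and 2 from CC080F1 hosts. CC075F1 hosts came from crossing C57BL/6J with CC075/UncJ, and CC080F1 hosts from crossing C57BL/6J with CC080/TauUncJ. The study treated CC075F1 as a responder strain to PD-1 blockade and CC080F1 as a non-responder strain, but no mouse analyzed here received anti-PD-1. All hosts were female, 8 to 12 weeks old at engraftment with 500000 MC38 cells (a C57BL/6 colon carcinoma line) under the skin. Each received 1 intraperitoneal dose of 200 µg isotype control antibody (2A3) at a tumor size of 75 to 110 mm3 and was euthanized 48 h later. The labels call the 2 sections of a strain biological replicates. Every host had a C57BL/6J parent, and the tumor cells are of C57BL/6 background, so host and tumor transcripts of a gene were counted together.

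Sections held 2710 to 3276 spots and 82594649 to 146460975 unique molecular identifiers (UMIs), and 1 spot had no UMI. Levels are given as counts scaled to 1000000 UMIs of the section or spot group (CPM). A spot covers several cells, so fewer cells of a type and less RNA per cell cannot be told apart. The summed macrophage list (14 genes) was at 5221 and 4714 CPM in CC075F1 against 3229 and 3766 in CC080F1. The T list (13 genes) was at 90.1 and 79.2 against 26.2 and 32.1, and an IFN-γ response list (16 genes) at 2696 and 2252 against 1542 and 1965. In the NK list (10 genes), Klra4 took 73.0% to 91.9% of the UMIs, and the remaining 9 genes were at 14.4, 19.0, 5.85 and 33.2 CPM (CC075F1 replicates 1 and 2, then CC080F1 replicates 1 and 2, the order used throughout). NK content is therefore read without Klra4, a choice made after seeing the data. CC075F1 replicate 2 stood apart by skeletal muscle genes, at 137 CPM against 3.81 to 15.1 in the other sections. The epithelial genes Krt8, Krt18 and Epcam were each at 0.382 CPM or less in every section, so the tumor label could not be checked by them.

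As background, most SLAM receptors bind a copy of themselves on a neighbouring cell, and many signal through small adaptors of the SAP family. Slamf1, Ly9, Cd84 and Slamf6 are best known on lymphocytes. Slamf7 is found on NK, plasma and activated myeloid cells. Slamf8 and Slamf9 lack the tyrosine motifs that recruit SAP adaptors and are expressed largely by myeloid cells. Cd48 is a membrane-anchored ligand of the NK and T cell receptors 2B4 (Cd244a) and CD2 and is found on most leukocytes. Sh2d1b1 encodes the adaptor EAT-2, a relative of SAP (Sh2d1a).

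On build GRCm38 (GENCODE vM21), the 9 genes span 2.31 Mb of chromosome 1, from Sh2d1b1 (170277320 to 170286769) to Slamf8 (172581758 to 172590568), and all are protein-coding. Ly9, Slamf7, Cd48, Slamf1, Cd84 and Slamf6 form a run of 6 within 0.365 Mb. RefSeq promoter windows (GRCm38.p6, 250 bases before to 50 after the start) were at hand for 8 of the 9 genes, all but Ly9. They were searched on both strands for the IFN-γ activated site TTCNNNGAA, the interferon-stimulated element core (GAAA, any 2 bases, GAAA), a PU.1 core GAGGAAGT and the TATA box TATAAA. The interferon-stimulated element core was present in Slamf8 only, 15 to 6 bases before the start and on the opposite strand, against 3.44% of 32851 promoters. The PU.1 core was present in Slamf9 only, 8 bases to 1 base before the start, against 3.20% of promoters. The IFN-γ activated site (8.30% of promoters) and the TATA box (13.6%) were present in none of the 8 windows. The windows of Slamf8 and Slamf9 are shown for these matches, which are in capitals, and those of Slamf7 and Sh2d1b1 because these genes had the widest strain ratios below.
Slamf8 promoter, chr1:172590519-172590818, minus strand: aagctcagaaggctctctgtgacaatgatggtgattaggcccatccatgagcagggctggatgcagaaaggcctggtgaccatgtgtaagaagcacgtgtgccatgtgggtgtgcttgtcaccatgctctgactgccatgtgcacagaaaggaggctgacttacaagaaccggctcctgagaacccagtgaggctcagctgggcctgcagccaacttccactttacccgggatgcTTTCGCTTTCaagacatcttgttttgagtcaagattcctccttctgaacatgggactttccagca
Slamf9 promoter, chr1:172475110-172475409, plus strand: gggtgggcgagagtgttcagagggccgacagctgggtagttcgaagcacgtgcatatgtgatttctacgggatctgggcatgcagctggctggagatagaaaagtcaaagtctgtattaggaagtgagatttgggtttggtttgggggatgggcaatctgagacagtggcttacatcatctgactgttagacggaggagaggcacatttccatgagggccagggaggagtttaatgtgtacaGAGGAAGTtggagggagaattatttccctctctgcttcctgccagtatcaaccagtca
Slamf7 promoter, chr1:171648950-171649249, minus strand: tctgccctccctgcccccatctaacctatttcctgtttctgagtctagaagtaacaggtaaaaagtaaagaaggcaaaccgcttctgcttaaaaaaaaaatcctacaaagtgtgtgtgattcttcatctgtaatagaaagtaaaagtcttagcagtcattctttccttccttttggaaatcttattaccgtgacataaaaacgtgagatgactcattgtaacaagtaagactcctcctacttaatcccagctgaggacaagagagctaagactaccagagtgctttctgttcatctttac
Sh2d1b1 promoter, chr1:170277068-170277367, plus strand: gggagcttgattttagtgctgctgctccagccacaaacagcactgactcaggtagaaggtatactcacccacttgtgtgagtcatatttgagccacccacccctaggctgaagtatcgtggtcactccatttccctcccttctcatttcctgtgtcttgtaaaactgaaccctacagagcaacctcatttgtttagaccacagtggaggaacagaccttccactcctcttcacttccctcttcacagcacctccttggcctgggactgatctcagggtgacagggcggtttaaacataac

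The receptor Slamf7 was at 4.98 and 5.0 CPM in the CC075F1 sections and at 1.22 and 2.20 in the CC080F1 sections. These levels rest on 411, 733, 114 and 248 UMIs, with exact 95% Poisson intervals of 4.51 to 5.48, 4.65 to 5.38, 1.0 to 1.46 and 1.94 to 2.49. The CC075F1 mean was 2.92 times the CC080F1 mean, and the 4 intervals separate the strains. The intervals cover counting error only. The B and plasma list (7 genes), which marks cells that can carry Slamf7, was at 4.04, 5.97, 3.02 and 2.56 CPM, and its part in the Slamf7 ratio was not tested. The adaptor gene Sh2d1b1 was at 10.4, 10.5, 4.0 and 4.64 CPM, a ratio of 2.41 between the strain means. For each gene the strains did not overlap in CPM, and the CC075F1 sections lay close together on that scale.

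Sh2d1b1 has a close copy next to it, Sh2d1b2, and reads that match both genes can be lost or split. Sh2d1b2 had 0 UMIs in both replicates 1, which allows up to 0.0363 CPM in CC075F1 and 0.0321 in CC080F1, and 10 and 26 UMIs in replicates 2. How many Sh2d1b1 reads were affected was not tested.

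The myeloid receptor Slamf8 was at 18.4, 11.1, 7.09 and 9.03 CPM, and Slamf9 at 41.9, 56.6, 32.3 and 35.6. Their ratios between strain means were 1.83 and 1.45. Cd48, the ligand of 2B4 and CD2, was at 28.0, 30.4, 23.7 and 22.5, a ratio of 1.26. In these 3 genes the sections of the strains did not overlap either. Slamf6 was at 4.93, 2.43, 2.27 and 2.33. Its strains were also apart, but in CPM CC075F1 replicate 2 lay only just above CC080F1 replicate 2. The CPM ratio of 1.60 therefore rests on CC075F1 replicate 1. In the edgeR fit given below, which scales sections differently, the log2 fold change was 0.66 without that section and 0.92 with it.

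The remaining 3 receptor genes overlapped between strains in CPM. Cd84 was at 31.8, 19.4, 17.3 and 24.2 CPM, with CC080F1 replicate 2 above CC075F1 replicate 2. Ly9 was at 5.55, 4.16, 4.71 and 4.11. Slamf1 was at 0.351, 0.287, 0.438 and 0.319, on 29 to 42 UMIs a section, and its ratio was 0.842. With 2 sections a strain, the smallest two-sided exact permutation p is 0.333.

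**Figure D1:**
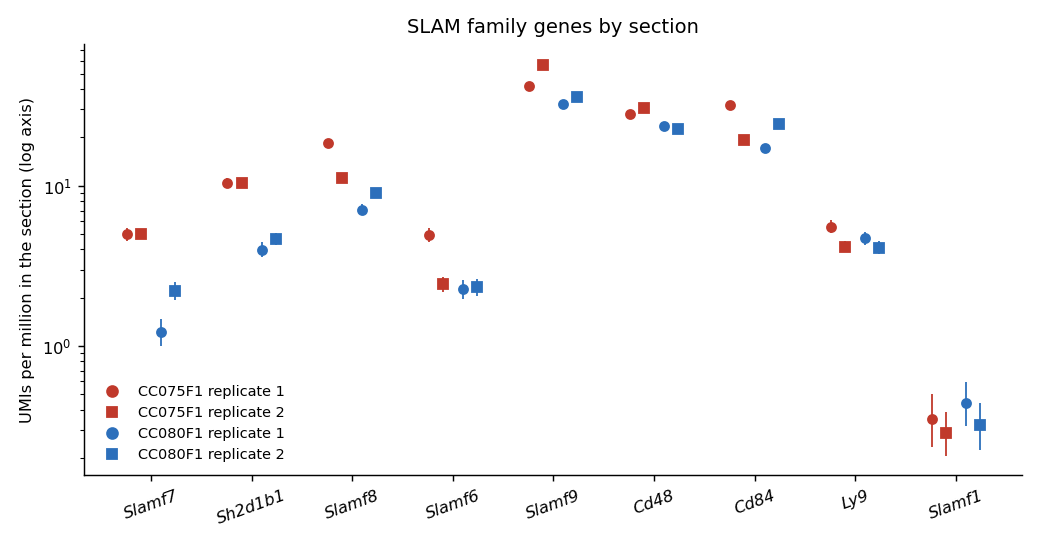
Level of each SLAM family gene in each section. The vertical axis is CPM on a log scale, points are sections (circles replicate 1, squares replicate 2, red CC075F1, blue CC080F1), and bars are exact 95% Poisson intervals. Slamf7 and Sh2d1b1 show the widest gaps between strains, and Cd84, Ly9 and Slamf1 overlap.

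Of the 9 genes, 6 had both CC075F1 sections above both CC080F1 sections, as did 6.63% of the 15572 genes tested. This count uses the values that chose the set, so nothing is read from it. In edgeR's fit of the section sums with trimmed mean of M-values (TMM) scaling, the log2 fold changes (CC075F1 over CC080F1 ± SE, 2 sections each) were 1.86 ± 0.41 for Slamf7, 1.60 ± 0.28 for Sh2d1b1 and 1.13 ± 0.23 for Slamf8. They were 0.92 ± 0.32 for Slamf6, 0.91 ± 0.32 for Slamf9, 0.68 ± 0.25 for Cd48, 0.57 ± 0.24 for Cd84, 0.44 ± 0.25 for Ly9 and 0.07 ± 0.46 for Slamf1. The median of the 9 was 0.91 and that of all genes tested -0.02. The TMM factors of the sections were 1.08, 0.745, 1.165 and 1.067. TMM scaling therefore sets CC075F1 replicate 2 higher against the other sections than CPM does. Overlap of the strains was read in CPM only and can differ under TMM scaling. With library size alone, the median of all genes moved to -0.31 and that of the 9 to 0.54, and Slamf1 turned to -0.25. These values chose the set, so no strain test of the 9 genes is read here.

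The first question put to the sections was whether the genes were detected where macrophage transcripts were. In each section, spots of the highest and the lowest tertile of macrophage share were matched for depth, summed, and compared with section as a block. Of the 9 genes, 7 were higher in macrophage-high spots, as were 9.29% of the 13828 genes tested. Slamf8 was at 21.8 against 14.6 CPM in CC075F1 replicate 1, 17.9 against 5.80 in replicate 2, 8.44 against 5.52 in CC080F1 replicate 1 and 12.1 against 6.07 in replicate 2. It was higher in macrophage-high spots of all 4 sections, with a log2 fold change of 0.84 ± 0.14 (adjusted p = 0.0107).

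Slamf6 was at 6.13 against 3.82, 3.62 against 1.41, 3.06 against 1.40 and 3.45 against 1.34 CPM (log2 fold change 0.99 ± 0.13, adjusted p = 0.00611). Sh2d1b1 was at 11.9 against 8.58, 13.9 against 6.90, 4.45 against 3.51 and 5.61 against 3.63 (0.51 ± 0.10, adjusted p = 0.0157). Both genes were higher in macrophage-high spots of each section. Cd84 (0.51 ± 0.05), Slamf9 (0.47 ± 0.07), Ly9 (0.43 ± 0.10) and Cd48 (0.30 ± 0.04) also passed, and were higher in 4 of 4 sections. For Slamf1 the log2 fold change was 0.75 ± 0.25 and it did not pass (adjusted p = 0.0776).

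Slamf7 did not pass. Its levels in macrophage-high and macrophage-low spots were 5.80 and 4.54 CPM in CC075F1 replicate 1, 5.26 and 5.25 in replicate 2, 1.61 and 0.958 in CC080F1 replicate 1, and 2.26 and 2.4 in replicate 2. The log2 fold change was 0.05 ± 0.16 (adjusted p = 0.859), and the ratio ran from 0.939 to 1.68 over the sections. With an error of this size, a modest difference in either direction was not detectable.

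Macrophage-high spots also held more T list UMIs in every section (32.0 to 111 against 20.5 to 80.9 CPM) and more IFN-γ response UMIs (1771 to 3047 against 1337 to 2400). CC080F1 replicate 2 carried weight in this fit: without it 1 of the 9 genes passed (Cd84), and 55 genes in all. Without the section block none passed.

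The next question was T and NK content. Spots with at least 1 UMI of the T list were compared with depth-matched spots without one. Slamf8 passed, at 21.0 against 13.2, 11.9 against 6.6, 7.24 against 6.86 and 9.75 against 7.73 CPM (log2 fold change 0.37 ± 0.09, adjusted p = 0.0228). The gap was wider in both CC075F1 sections than in either CC080F1 section, but the strain difference did not pass (0.49, unadjusted p = 0.00317, adjusted p = 0.550). The other 8 genes did not pass, against 3.99% of 13676 genes higher. At an unadjusted p under 0.05, 5 of the 9 were higher, against 9.83% of genes. Slamf1 had the widest fold, 1.17 ± 0.36 (adjusted p = 0.0632), on 5 against 0, 8 against 3, 21 against 11 and 18 against 8 UMIs.

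Slamf7 was at 5.57 against 6.69, 5.07 against 5.38, 1.14 against 1.12 and 2.05 against 2.31 CPM in T-marked and unmarked spots, a log2 fold change of -0.20 ± 0.12 (adjusted p = 0.372). The matched spots are a random draw, and with another seed Slamf7 in T-marked spots of CC075F1 replicate 1 was at 3.71 CPM (36 UMIs instead of 54) and the log2 fold change was -0.39 (adjusted p = 0.102). Slamf1 then had 2 UMIs there instead of 5 and was left out by the filter on low counts, and Slamf8 still passed (0.37, adjusted p = 0.0138). In T-marked spots the macrophage list was at 5281, 4919, 3318 and 3951 CPM against 4935, 3780, 3144 and 3559 in unmarked spots, and the IFN-γ response list at 2956, 2351, 1610 and 2144 against 2409, 1722, 1459 and 1724. The part of either list in the T result was not tested. The T result turned on the processing: DESeq2 passed 0 of the 9, and so did the fits without CC075F1 replicate 1, CC075F1 replicate 2 or CC080F1 replicate 2.

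With the NK list as fixed, 0 of the 8 genes that could be tested passed (0.0585% of 11962 genes were higher, and 0 of the 8 had an unadjusted p under 0.05 in that direction), and their log2 fold changes lay between -0.29 and 0.16. Since Klra4 marked most of those spots, the comparison was repeated without it. Then 0 of the 9 passed, against 1.12% of 13928 genes, and 5 had an unadjusted p under 0.05, against 8.16% of genes. DESeq2 passed 0 as well. Slamf9 came nearest (0.15 ± 0.04, adjusted p = 0.0524), and Slamf7 was at 0.02 ± 0.14 (adjusted p = 0.981). NK genes were sparse, so a spot marked by them is a weak measure of NK cells.

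IFN-γ response content was the last contrast. Of the 9 genes, 4 were higher in spots of the highest tertile than in those of the lowest, against 9.61% of 13856 genes. Slamf8 was at 26.8 against 11.04, 19.5 against 5.42, 9.63 against 5.43 and 13.3 against 5.81 CPM (log2 fold change 1.19 ± 0.12, adjusted p = 0.000427). The levels of its IFN-γ-response-high spots were above those of its low spots in each section, by 1.77 to 3.59 times. Slamf6 followed with 0.90 ± 0.12 (adjusted p = 0.00142). Ly9 (0.38 ± 0.11) and Cd48 (0.21 ± 0.04) passed with smaller changes. Sh2d1b1 (0.29 ± 0.09, adjusted p = 0.0505) and Slamf9 (0.25 ± 0.08, adjusted p = 0.0571) did not pass. Slamf7 was at 6.27 against 4.42, 5.13 against 4.48, 1.87 against 0.895 and 2.55 against 2.21 (0.27 ± 0.15, adjusted p = 0.252). The macrophage list was at 5553, 5787, 3550 and 4223 CPM in spots high for the IFN-γ response against 4828, 3833, 2957 and 3196 in low spots, and its part in this result was not tested. Without CC080F1 replicate 2, 2 of the 9 passed (Slamf6 and Slamf8), and without CC080F1 replicate 1, 6 passed, with Slamf9 and Sh2d1b1 added. The shares of all genes passing in these fits are not given here.

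**Figure D2:**
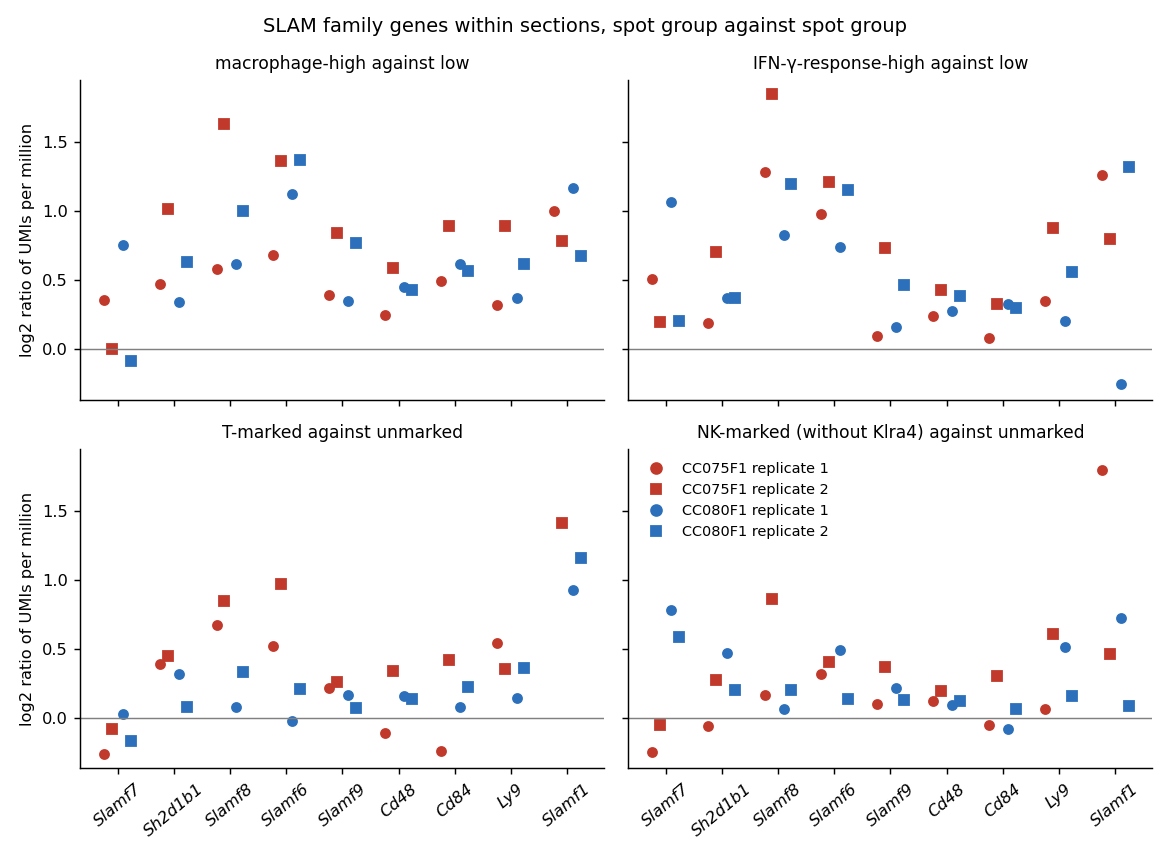
Within-section log2 ratios of CPM, high or marked spots over low or unmarked spots, for 4 kinds of spot content. Points are sections (circles replicate 1, squares replicate 2, red CC075F1, blue CC080F1), and Slamf1 has 3 points for T content because its level in unmarked spots of CC075F1 replicate 1 was 0. Slamf8 and Slamf6 lie highest for macrophage and IFN-γ response content, and Slamf7 lies around 0 for T content.

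By edgeR's interaction test and by DESeq2, 0 of the 9 genes passed for a strain difference of any of these contrasts. At an unadjusted p under 0.05 by edgeR there were 2 for T content, both larger in CC075F1. Of all genes, 2.65% were larger and 3.92% smaller there at that threshold. There was 1 for IFN-γ response, larger in CC075F1, against 3.2% of all genes larger and 2.02% smaller. There was 1 for NK content without Klra4, smaller in CC075F1, against 2.75% larger and 1.91% smaller. There were 0 for the others. At the adjusted threshold, the shares of all genes that passed were 0.00693% for macrophage content, 0.0491% for T content and 0.00692% for IFN-γ response. They were 0.127% for the NK list as fixed and 0% without Klra4. The smallest unadjusted p was for Slamf7 and NK content without Klra4 (log2 difference -0.81, unadjusted p = 0.00291, adjusted p = 0.622).

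To take the contents together, each gene's UMIs per spot were regressed in each section on macrophage, T and NK share (Poisson, with depth as offset). Coefficients are log2 changes per SD of the share, given as mean ± SD over 4 sections. The shares were not measured equally well. The macrophage list was at 3229 to 5221 CPM in the sections, but the T list at 26.2 to 90.1. T and NK shares of a spot thus rest on few UMIs, so terms and counts cannot be compared between the lists. The macrophage term was positive in all 4 sections for 9 of 9 genes, against 38.4% of genes. It was 0.44 ± 0.12 for Slamf6, 0.37 ± 0.21 for Slamf8, 0.32 ± 0.10 for Cd84, 0.25 ± 0.11 for Sh2d1b1 and 0.18 ± 0.07 for Slamf7. The T term was positive in all 4 sections for 4 genes, against 23.1%: Slamf1 (0.37 ± 0.05), Slamf6 (0.17 ± 0.03), Slamf8 (0.16 ± 0.10) and Ly9 (0.07 ± 0.09). The NK term with the list as fixed, which is mostly Klra4, was positive in all 4 sections for 1 gene, Slamf9 (0.05 ± 0.01), against 14.2%. Without Klra4 it was positive in all 4 sections for Cd48 (0.06 ± 0.04), Cd84 (0.02 ± 0.01) and Ly9 (0.10 ± 0.05), and in 3 for Slamf9 (0.04 ± 0.03). The T term of Ly9 was then positive in 3 sections. With an IFN-γ response term added, the macrophage term of Slamf8 was 0.22 ± 0.14 beside an IFN-γ response term of 0.41 ± 0.09, and its T term was 0.08 ± 0.08. The T term of Ly9 was then positive in 3 sections too. For Slamf7 the macrophage and IFN-γ response terms were 0.10 ± 0.06 and 0.25 ± 0.11. For Slamf7 the macrophage term was 0.03 ± 0.08 with content summed over the spot and its neighbours.

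The strain ratios were then recomputed at equal spot content, by averaging each section's levels over strata of macrophage tertile, T UMIs and NK UMIs with the same weights. The 7 strata with at least 20 spots in every section covered 91.2% to 98.6% of a section's UMIs. This is a description, since the strain ratio chose the genes. For Slamf7 the ratio went from 2.92 to 2.78, with section levels of 4.91 and 5.06 against 1.36 and 2.23 CPM. For Sh2d1b1 it went from 2.41 to 1.90, at 8.64 and 9.38 against 4.72 and 4.78. Both genes kept their CC075F1 sections above their CC080F1 sections. The strata mark only whether a T or NK list UMI was present, and the NK list is mostly Klra4, so T and NK cell numbers were not made equal.

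Of the other genes, Slamf8 went from 1.83 to 1.35, at 15.2 and 9.45 against 7.88 and 10.3 CPM, and its sections overlapped. Slamf6 went from 1.60 to 1.13 and Cd84 from 1.24 to 1.02, both overlapping. Slamf9 went from 1.45 to 1.24 and Cd48 from 1.26 to 1.12, still without overlap. Ly9 went from 1.10 to 0.964. In all, 4 of the 9 genes had both CC075F1 sections above both CC080F1 sections at equal content, as did 5.51% of genes. With NK content taken without Klra4 the count was 3, since Cd48 overlapped (25.5 and 27.6 against 25.5 and 22.5 CPM). Without CC075F1 replicate 2 it was 8, but with fewer sections the strains come apart more easily. The share of all genes under that looser rule was not computed. Slamf1 moved away from 1, from 0.842 to 0.510, on few UMIs.

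By single lists, equal macrophage content gave 2.60 for Slamf7, 2.03 for Sh2d1b1, 1.47 for Slamf8 and 1.17 for Slamf6. Equal T content gave 3.08, 2.27, 1.68 and 1.497, and equal IFN-γ response 2.39, 2.15, 1.33 and 1.23. For Slamf6 and Slamf8, macrophage or IFN-γ response strata moved the ratio more than T strata did. A T stratum here is only the presence of a T list UMI. With strata of 0 to 4 or more T UMIs, Slamf6 was at 1.28 and Slamf8 at 1.5. With macrophage deciles they were at 1.00 and 1.28, over strata that covered 60.2% to 81.7% of a section's UMIs. The ratios thus depended on how fine the strata were. The T list differed 2.90-fold between strains against 1.42-fold for the macrophage list, so spots of a stratum need not hold like numbers of T cells. With content summed over the spot and its neighbours, like strata covered only 7.67% to 12.4% of a section's UMIs, and the ratios were 3.21 for Slamf7, 1.62 for Sh2d1b1, 0.761 for Slamf8 and 0.613 for Slamf6.

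**Figure D3:**
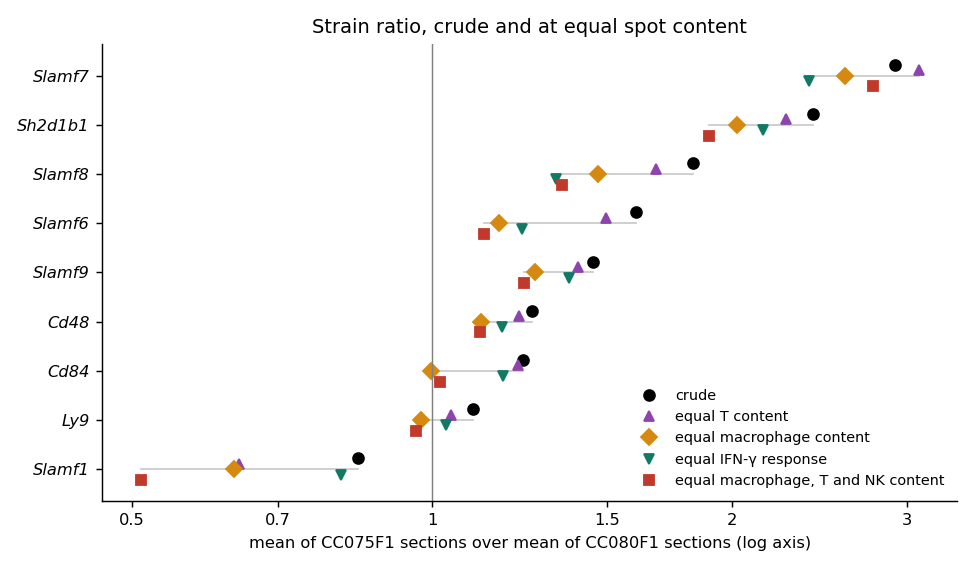
Ratio of the CC075F1 to the CC080F1 mean (log axis) for each gene, crude and with spot content made equal between sections. Each marker is a kind of content, and the gray line spans the values of a gene. Slamf7 stays between 2.39 and 3.08 under every kind shown, and Slamf6 moves from 1.60 to 1.13.

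Per 1000 UMIs of the macrophage list, Slamf7 had 0.953, 1.06, 0.377 and 0.584 UMIs, and Sh2d1b1 had 1.99, 2.22, 1.24 and 1.23. These 2 of the 9 genes had both CC075F1 sections above both CC080F1 sections on this scale, as did 1.60% of genes. Slamf9 had 8.02, 12.0, 10.0 and 9.44, so its strains overlapped. Per 1000 UMIs of the T list, 0 of the 9 were apart in that direction, against 0.276% of genes. Slamf7 then had 55.2, 63.2, 46.5 and 68.5 UMIs and overlapped. Sh2d1b1 had 115, 132, 152 and 144 and was lower in CC075F1, as was every other member except Slamf7. The T list itself was 2.90-fold higher in CC075F1, so division by it lowers the CC075F1 values of any gene. The share of all genes lower on this scale was not computed.

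Levels within tertiles of macrophage share, set over all sections, are given next. The lowest tertile held 161, 671, 1819 and 1331 spots and the highest 1581, 1735, 106 and 561. Levels from the smallest of these groups rest on few UMIs and carry wide counting error. In the lowest tertile Slamf7 was at 4.39, 5.38, 1.08 and 2.17 CPM, and in the highest at 5.13, 4.90, 1.8 and 3.0. Sh2d1b1 was at 6.37, 5.91, 3.87 and 3.72 in the lowest and at 11.3, 13.8, 5.11 and 5.59 in the highest. In spots with no T list UMI and no UMI of NK genes other than Klra4 (319, 341, 1198 and 768 spots), Slamf7 was at 7.48, 5.71, 1.04 and 2.17. Sh2d1b1 was at 9.18, 7.66, 3.45 and 4.33 there. The strains did not overlap in those spots for either gene.

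**Figure D4:**
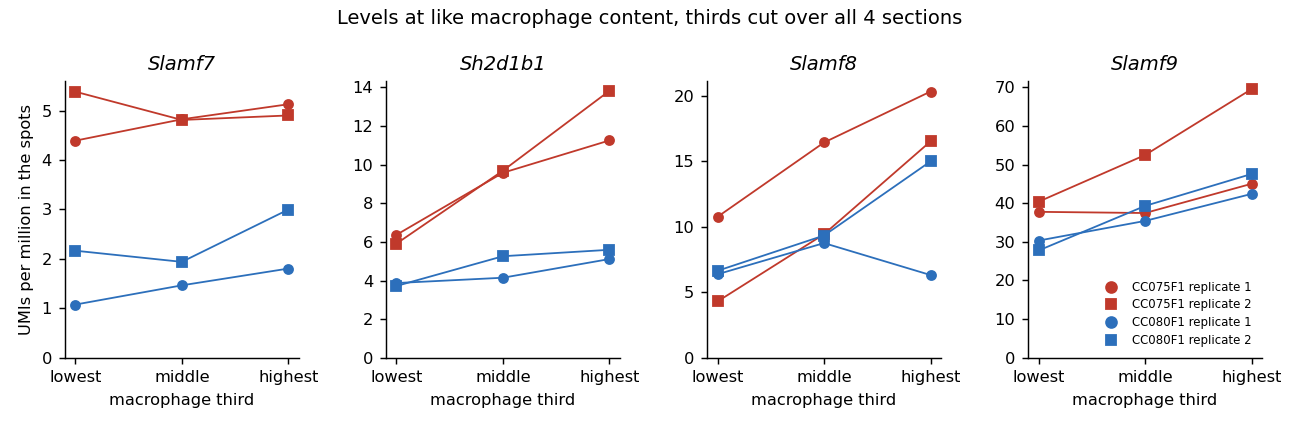
Levels of Slamf7, Sh2d1b1, Slamf8 and Slamf9 in spots of the lowest, middle and highest tertile of macrophage share, in CPM. Lines are sections (circles replicate 1, squares replicate 2, red CC075F1, blue CC080F1). The lowest tertile of CC075F1 replicate 1 held 161 spots and the highest of CC080F1 replicate 1 held 106. Both CC075F1 lines of Slamf7 lie between 4.39 and 5.38 and both CC080F1 lines between 1.08 and 3.0, while Sh2d1b1 reaches 13.8 in the highest tertile of CC075F1 replicate 2.

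Where Slamf7 and Slamf8 lay in the tissue was mapped next. UMIs were summed over each spot and its 6 direct neighbours, and neighbourhoods with at least 100000 UMIs were kept. Of the decile highest for Slamf7, 9.76%, 12.8%, 13.5% and 17.5% were also in the decile highest for the macrophage list. For Slamf8 the shares were 11.8%, 44.2%, 9.40% and 26.9%, so the overlap was wide in both replicates 2 and near 10.0% in both replicates 1. Of the Slamf7 decile, 7.72%, 11.2%, 19.5% and 11.3% were in the Slamf8 decile. Neighbourhoods share spots, so no test was made. Slamf7 was sparse, with 114 UMIs in CC080F1 replicate 1. At 100000 UMIs, 1 UMI is 10.0 CPM, so the Slamf7 decile depends in part on neighbourhoods of low depth.

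**Figure D5:**
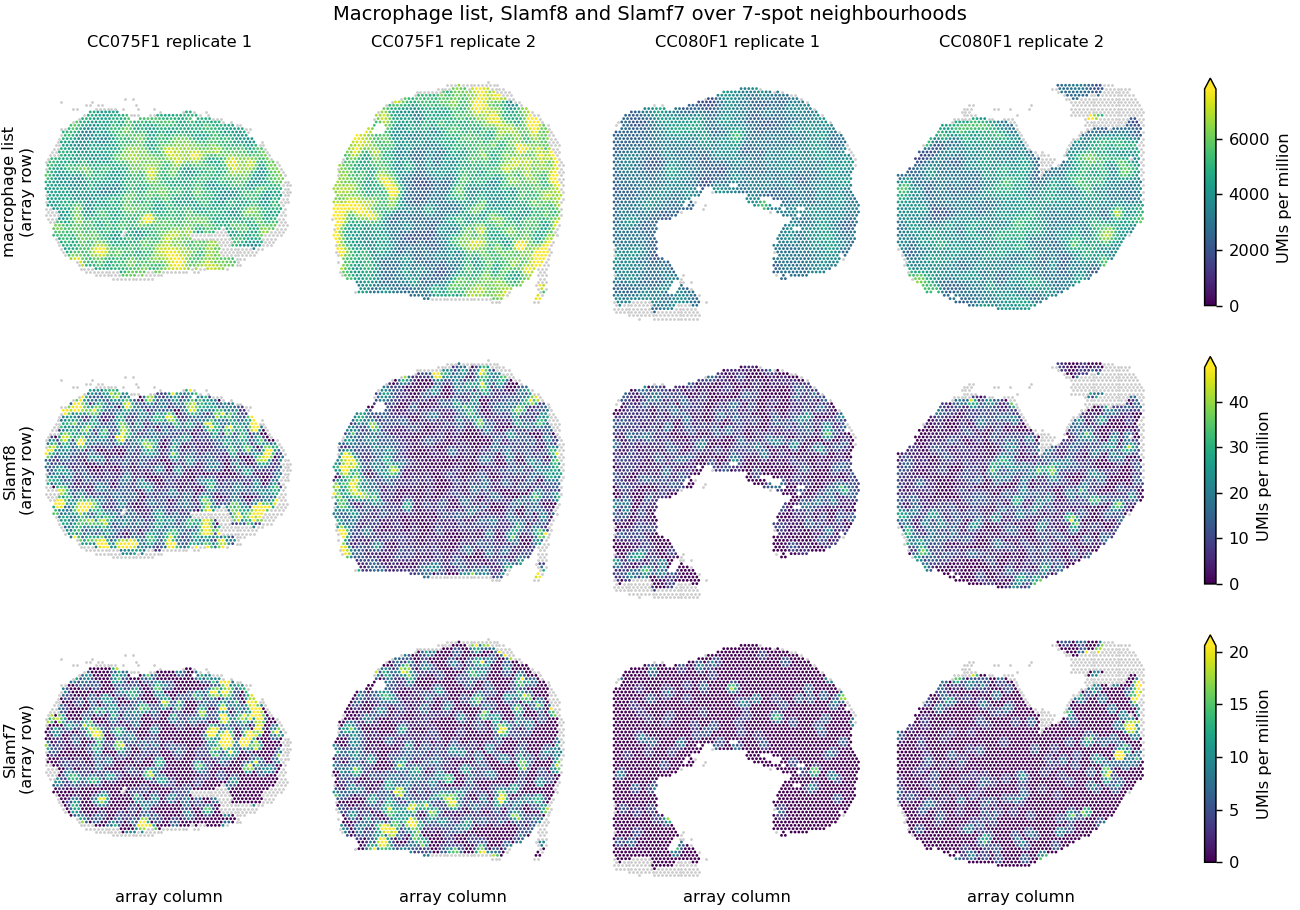
Maps of the 4 sections by array column and row, colored by CPM summed over each spot and its 6 direct neighbours, for the macrophage list, Slamf8 and Slamf7. Each row has 1 color scale that ends at its 99th percentile, and gray neighbourhoods held under 100000 UMIs. Slamf8 is high along the borders of CC075F1 replicate 1 and the left border of replicate 2, and Slamf7 in a patch at the right of CC075F1 replicate 1. In a neighbourhood of 100000 UMIs, 1 UMI is 10.0 CPM, so neighbourhoods of low depth can look high.

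Over these 7-spot sums, the genes most like each member were ranked by Pearson's r of log2(CPM + 1), averaged over the 4 sections, among 9400 genes. Neighbourhoods share spots and depth, so r is a description. Slamf8 was nearest to Cxcl9 (0.356), the IFN-γ-inducible chemokine, then AW112010 (0.351) and Gbp2 (0.329), and Cxcl9 and Gbp2 are both in the IFN-γ response list. Slamf9 was nearest to Fcer1g (0.328), Cd52 (0.321) and Cd72 (0.298). Cd84 was nearest to the lysozyme gene Lyz2 (0.325), which is in the macrophage list, and to the lysosomal genes Psap (0.269) and Ctss (0.251). Sh2d1b1 was nearest to Fcer1g (0.247), AW112010 (0.218) and Tyrobp (0.214). Fcer1g and Tyrobp encode signalling adaptors of myeloid and NK receptors.

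Slamf7 was nearest to the metallothionein genes Mt1 (0.212) and Mt2 (0.194) and to B2m (0.196), with no macrophage list gene among the 3. Cd48 was nearest to Tmsb4x (0.247), Fcer1g (0.235) and Rgs10 (0.229), and Slamf6 to AW112010 (0.217), C1qb (0.205, in the macrophage list) and Ifi30 (0.205). Ly9 reached 0.148 at most (Tmsb4x, then Ifitm3 at 0.145 and Ifi27l2a at 0.144) and Slamf1 reached 0.0999 (Cfl1, then Psma5 at 0.0907 and Tuba1b at 0.0854). Among pairs of the 9 genes, Slamf9 with Sh2d1b1 had the highest mean r, 0.172.

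Of 15 other genes of the SLAM pathway, 0 passed between strains by edgeR, against 0.0578% of all genes higher, and 3 had an unadjusted p under 0.05 (Cd2, Lck and Ptpn6, all higher), against 3.19%. In macrophage-high spots 6 of the 14 that could be tested were higher and 0 lower, against 9.29% of all genes higher. These were the receptor gene Cd2 (0.80 ± 0.22), the kinase Lck (0.78 ± 0.17), the phosphatases Ptpn6 (0.63 ± 0.09) and Inpp5d (0.64 ± 0.09), the exchange factor Vav1 (0.51 ± 0.05) and the kinase Prkcq (1.04 ± 0.19). The same 6 genes were higher in IFN-γ-response-high spots (9.61% of all genes), with log2 fold changes from 0.31 (Vav1) to 1.16 (Prkcq). In T-marked spots 5 were higher (3.99% of all genes), with Cd2 at 0.97 ± 0.18 and Lck at 0.80 ± 0.13, and without Vav1. In spots marked by NK genes other than Klra4, Ptpn6 (0.24 ± 0.04) and Vav1 (0.17 ± 0.04) were higher (1.12% of all genes). The 2B4 gene Cd244a was at 2.37, 2.23, 1.76 and 2.91 CPM, and the SAP gene Sh2d1a at 0.932, 0.785, 0.363 and 0.728. Neither passed in any of these contrasts, and both are named outside the naming rule, after their values were seen.

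Between the first and the last member lie 70 other annotated genes in the table, of which 52 could be tested between strains. Of these, 36 were higher and 16 lower in CC075F1, where 47.5% of all genes tested were higher and 52.5% lower. Their median log2 fold change was 0.14, and 0 passed by edgeR. At an unadjusted p under 0.05 there were 5, named here after their values were seen, where 3.19% of all genes were higher and 2.25% lower at that threshold. Fcgr4 (1.44 ± 0.46), Fcer1g (1.20 ± 0.44), Pcp4l1 (2.04 ± 0.63) and Casq1 (2.20 ± 0.90) were higher and Itln1 (-2.13 ± 0.76) was lower. Casq1, a muscle gene, was at 0.448, 2.96, 0.534 and 0.532 CPM, and so was high only in the section with muscle transcripts.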

How the data were processed

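Deposited files were tables of raw UMI counts per gene and spot, which the authors made from Visium libraries with Space Ranger on build GRCm38 (mm10) and GENCODE vM23 annotation. Seurat 5.0.1 is also named in the submitters' processing notes. Gene positions given here come from GENCODE vM21. All spots in the tables were used and no doublet caller was run.

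The members and gene lists were chosen with earlier results of these data known. The rule for naming took the 9 members, pathway genes that passed in a contrast described, genes between the first and last member that passed between strains, and for each member the 3 genes with the highest mean within-section correlation among genes with at least 500 UMIs in every section. No gene between the members passed, so the 5 named there fall outside the rule, as do Cd244a, Sh2d1a, Sh2d1b2 and the marker genes named, all after their values were seen.

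UMIs were summed per section, or per section and spot group, and fitted across all genes with edgeR 4.0.16 (R 4.3.3; filterByExpr, TMM scaling, quasi-likelihood test, Benjamini-Hochberg adjusted p under 0.05). Spot groups were the highest and lowest tertile of a list's share of UMIs, or spots with at least 1 UMI of the list against spots with 0. Tertiles were ranked within 10 depth bins per section. Marked and unmarked spots were matched in such bins by random draw. The section was a block for both kinds of group. Strain differences were interaction terms. Poisson regressions used statsmodels 0.14.6. Alternatives were DESeq2 1.42.0, library size alone, no filter on low counts, no block, no depth matching, stricter marking, another seed of the draw, other strata, and leaving out each section. The fitting code was tested on simulated counts with known changes. The NK list without Klra4, and equal content by NK genes other than Klra4 alone, by IFN-γ response alone, by macrophage deciles and by finer T classes, were chosen after seeing the data. Depth was 82594649 to 146460975 UMIs a section (median 31139 to 41740 a spot).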

Additional observations from a re-analysis of the deposited data

How the results depend on the processing

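Between strains, the values chose the set, so the counts are a description only and no test is read from them. By edgeR 0 of the 9 genes passed, where 0.0578% of all genes were higher. At an unadjusted p under 0.05 there were 6, where 3.19% of all genes were higher. The count passing was 3 by DESeq2 (194 of 15572 genes called), 4 with no filter (480 of 22507) and 3 with the replicate block (287 of 15572). Replicate numbers correlated at 0.165 over 15572 genes, but with 2 pairs and no label that ties them they share only a number, so the replicate block, which raised the genes called from 14 to 287, is given here alone. The numbers of genes called were 40 with library size alone, 194 by DESeq2, 480 with no filter and 11 to 207 when a section was left out. Of the genes called, 64.3% were higher in CC075F1 in the reported fit, 55.0% with library size alone and 63.6% to 85.7% when a section was left out. Slamf1 turned to -0.25 with library size alone and ran from -0.072 to 0.25 when a section was left out (-0.044 without CC075F1 replicate 2).

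Within sections, removing the section block left 0 of the 9 genes for macrophage, T and IFN-γ response content, and leaving out a section gave 1 to 7, 0 to 1 and 2 to 6. For T content the count of 1 became 2 with library size alone, 0 by DESeq2, 2 without depth matching and 3 at 2 UMIs or more. IFN-γ response gave 7 with library size alone. NK content without Klra4 gave 1 with library size alone and 2 with no filter. The share of all genes passing under each alternative can change too and is not given here. Changes of these counts are therefore not read as results about the 9 genes. The strain difference passed for 1 gene (macrophage) and 2 genes (NK without Klra4) without CC075F1 replicate 1, and otherwise for 0. Slamf7 turned to -0.0027 without the section block for macrophage content and ran from -0.057 to 0.20 when a section was left out (below 0 without either replicate 1). For NK content without Klra4 it turned to -0.025 without the block and -0.17 at 2 UMIs or more, and ran from -0.14 to 0.15 when a section was left out (below 0 without either CC080F1 section). Cd84 turned to -0.014 without depth matching and ran from -0.034 (without CC075F1 replicate 2) to 0.060 for NK content without Klra4.

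At equal content, 4 genes were apart, against 2 with finer strata, 2 with IFN-γ response added, 2 with macrophage deciles, 3 with NK content without Klra4 and 4 to 8 when a section was left out. When a section was left out, counts per list were 2 to 4 (macrophage), 0 to 1 (T) and 3 to 8 (NK). With fewer sections the strains come apart more easily, so counts without a section cannot be set against those from all sections. The T term was positive throughout for 2 genes with content summed over neighbours, and the NK term for 3 without Klra4. Of 145 counts under alternatives, 114 stayed within 1.5 times the reported count. These include reported counts of 0 that stayed 0, as in most strain differences, so the share is no measure of stability. The causes were not tested. With 2 sections a strain, and 29 to 42 Slamf1 UMIs a section, small differences were not detectable.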

Other observations

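Conventional dendritic cell genes were at 20.8, 14.8, 14.7 and 17.4 CPM (CC075F1 replicates 1 and 2, then CC080F1 replicates 1 and 2), and plasmacytoid dendritic cell genes at 0.170, 0.635, 0.363 and 0.825, so both overlapped. Neutrophil genes were at 6.21, 5.35, 6.12 and 7.23 and overlapped as well. Fibroblast genes were at 668, 699, 713 and 1079 and were lower in both CC075F1 sections. The NK receptor gene Ncr1 was at 0.448, 0.765, 0.353 and 2.61 and was highest in CC080F1 replicate 2. Of the 14 macrophage genes, 6 were higher in both CC075F1 sections and 2 in both CC080F1 sections, and Csf1r, the receptor of the macrophage growth factor CSF1, was at 151, 94.1, 138 and 136.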
